A study of Rattus norvegicus with 10 samples.

Results

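Voltage-gated sodium channels carry the rising phase of the action potential along sensory axons. The genes described here are 6 that encode pore-forming alpha subunits (Scn9a, Scn10a, Scn11a, Scn3a, Scn2a and Scn8a) and 2 that encode beta subunits (Scn2b and Scn3b), out of 14217 genes that the array annotation names singly. They were chosen by name, with earlier results of these data known. Every probe set that the annotation assigns to one of them alone was used, which gave 10 of 31042 probe sets. Scn2b and Scn3b had 2 probe sets each and the other 6 genes had 1.

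The RNA came from axons that grew out of explanted rat dorsal root ganglia, where the cell bodies of sensory neurons lie. The embryonic group was 5 samples from animals at embryonic day 16 and the adult group was 5 samples from adult animals. In both groups the explants had spent 4 days in a chamber with compartments, and axons more than 1 cm long were taken from the outer compartment, so adult axons too had regrown in culture. The labels give no strain, sex, genotype or treatment, call the samples of a stage biological replicates and do not say whether a sample pooled animals. Where samples were not from separate animals or cultures, p-values measure the spread between these samples alone.

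An alpha subunit folds into 4 linked domains around a pore that opens on depolarisation and closes again by fast inactivation. Beta subunits are small membrane proteins with an immunoglobulin-like outer domain, which alter the gating and the surface delivery of the alpha subunit. Sensory neurons express several alpha subunits side by side. Scn9a, Scn10a and Scn11a are concentrated in pain-sensing neurons, and inherited changes in each are known to alter pain. Scn3a is known as the channel of embryonic neurons that falls as the nervous system matures, and it can return after nerve injury. Scn2a is mainly a channel of the central nervous system, and Scn8a is the channel of nodes of Ranvier.

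Several of these genes lie beside each other in the rat genome. In RefSeq's order of protein-coding genes, Scn3a and Scn2a are neighbours on chromosome 3, and Scn1a, Scn9a and Scn7a follow each other on the same chromosome. Scn10a and Scn11a lie on chromosome 8 with 1 gene between them. The 150 bases before the annotated start of the 4 alpha subunit genes with signal on the arrays are printed below from RefSeq's GRCr8 build, 5′ to 3′ on the gene's strand, with the letters TGTGGT, a core recognised by Runx factors, in capitals. All 4 genes are on the minus strand. The windows are chr3:71701378-71701527 for Scn9a, chr8:128340299-128340448 for Scn10a, chr8:128444719-128444868 for Scn11a and chr3:70666199-70666348 for Scn3a.
Scn9a: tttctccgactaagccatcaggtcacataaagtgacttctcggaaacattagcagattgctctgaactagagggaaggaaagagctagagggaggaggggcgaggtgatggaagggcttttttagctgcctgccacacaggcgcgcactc
Scn10a: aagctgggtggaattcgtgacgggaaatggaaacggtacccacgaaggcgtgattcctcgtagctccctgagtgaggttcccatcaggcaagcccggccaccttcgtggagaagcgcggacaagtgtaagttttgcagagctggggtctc
Scn11a: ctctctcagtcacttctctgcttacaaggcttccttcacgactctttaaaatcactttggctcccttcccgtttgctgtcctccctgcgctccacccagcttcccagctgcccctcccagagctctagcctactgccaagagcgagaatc
Scn3a: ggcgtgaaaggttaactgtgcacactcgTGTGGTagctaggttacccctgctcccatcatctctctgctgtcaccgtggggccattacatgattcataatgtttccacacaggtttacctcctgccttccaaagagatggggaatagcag

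Matches to 4 short motifs were searched on both strands in the 250 bases before each start. They were TGTGGT, the GC box GGGCGG, the TATA box TATAAA and the cyclic AMP response element TGACGTCA. The upstream sequences of Scn9a, Scn10a and Scn11a held a match to none of them. Scn3a held a single TGTGGT that begins 122 bases before the start, and Scn2b held 1 match on the opposite strand. TGTGGT is in 14.5% of the 33469 rat promoters of this length. In Scn8a, 86% of these bases were G or C and GGGCGG occurred 6 times, where 30.5% of all promoters hold it at least once and the median G and C content is 51.2%. These matches describe the letters and show no binding.

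The arrays differed among themselves in ways that touch these genes. The spread of an array's values, as their standard deviation, ran from 1.52 to 2.09 on the log2 scale, and 4 arrays (embryonic replicates 1 and 5, adult replicates 4 and 5) lay above the middle of that range. They are called wide below and the other 6 narrow. Transcripts added before labelling as poly-A controls were at 2.11 to 2.73 on embryonic and 7.64 to 11.97 on adult arrays, so a difference in labelling and the stage cannot be told apart. Differences between the 3′ and 5′ probe sets of actin were 4.34 to 5.52 and 3.03 to 6.04. A probe set was taken as above background on an array when it exceeded the 95th percentile of 101 probe sets for 87 genes of tissues that the cultures should lack, such as liver, pancreas and testis. That level ran from 3.05 to 4.12 over the arrays.

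The comparison asked how the axonal levels of these channels differ between embryonic and adult sensory neurons. Scn10a was above background on all 10 arrays, Scn11a on 9 and the brighter Scn3b probe set on 8. Scn9a and Scn3a were above it on some embryonic arrays and on 0 adult arrays, and Scn2a and Scn8a on 0 of 10. By limma, 0 of the 10 probe sets passed an adjusted p of 0.05, while over the whole array 258 probe sets, or 0.831%, passed, 0.374% higher and 0.457% lower in adult samples. The brighter Scn3b probe set came closest (log2 change -3.80 ± 0.78, SE, n = 5 per stage; adjusted p = 0.053). At an unadjusted p under 0.05 there were 4 of 10, for Scn9a, Scn3a and both Scn3b probe sets, each with a lower adult mean, against 9.84% of all probe sets in either direction and 5.39% with a lower adult mean. The median change was -1.15 over the 10 probe sets and 0.0015 over all probe sets. In RNA from whole axon samples, fewer axons of a type and less RNA per axon cannot be told apart.

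**Figure D1:**
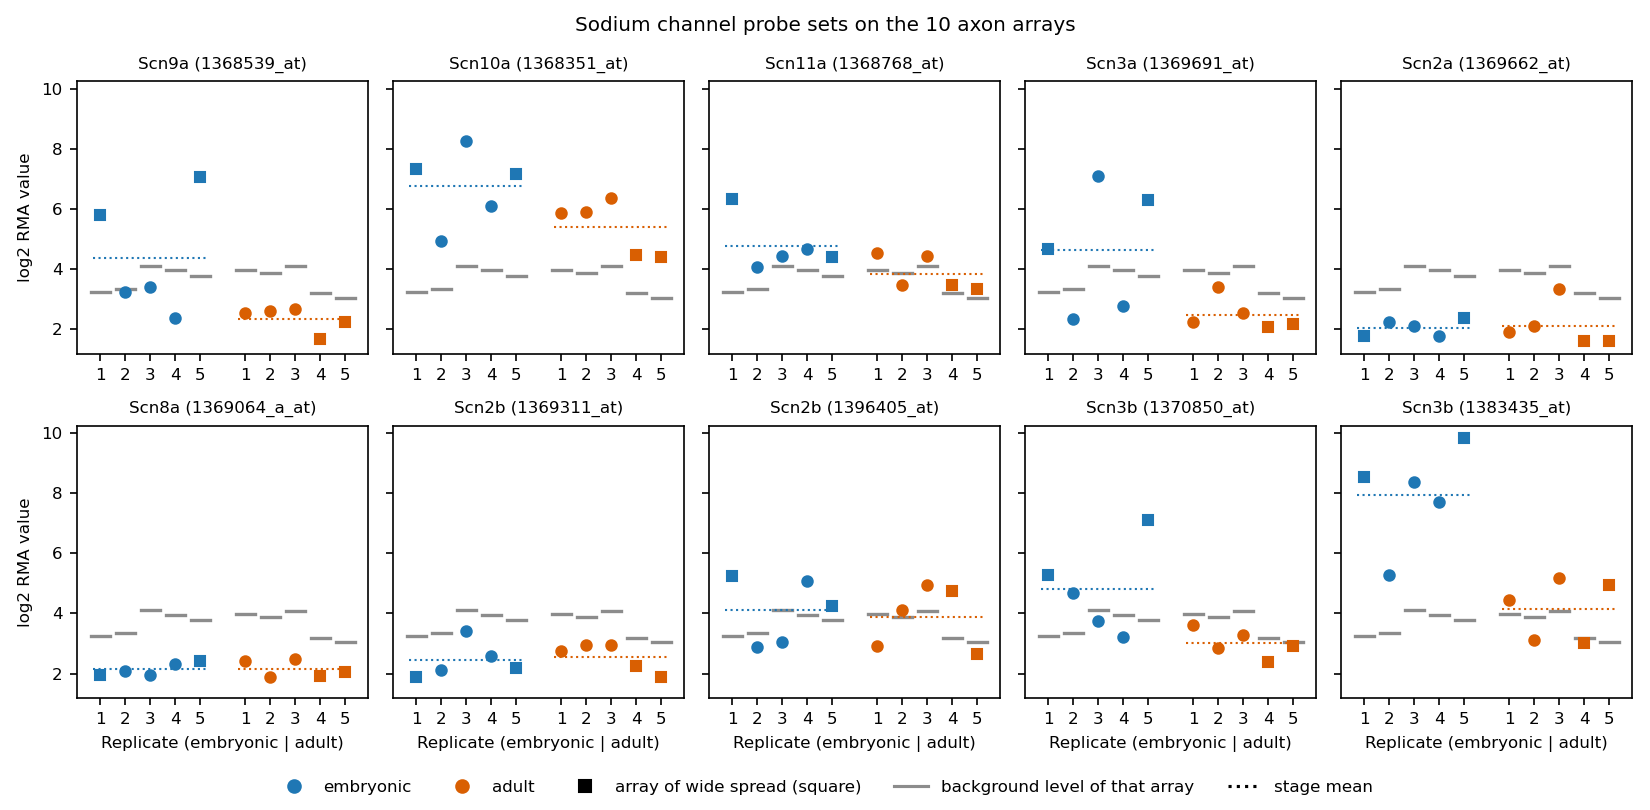
Deposited log2 values of the 10 sodium channel probe sets (vertical axis) on each of the 5 embryonic (blue) and 5 adult (orange) arrays; grey bars are the background level of that array, dotted lines the stage means, and squares the 4 wide arrays. Scn10a lies above the grey bars on all 10 arrays, Scn2a and Scn8a below them on all 10, and only the brighter Scn3b probe set (1383435_at) separates the stages.

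Of the 10 probe sets, 3 were above background on all 5 embryonic arrays (Scn10a, Scn11a and the brighter Scn3b probe set) and 1 on all 5 adult arrays (Scn10a). Over the whole array these shares were 16.6% and 13.8%. A single array held 4 to 7 of the 10 above background among embryonic samples and 2 to 4 among adult samples. The 2 embryonic arrays with 7 were replicates 1 and 5, both wide.

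Scn10a encodes the tetrodotoxin-resistant channel that carries most of the inward current of the action potential in pain-sensing neurons. Its values on the log2 scale were 7.34, 4.95, 8.27, 6.12 and 7.16 on embryonic arrays 1 to 5 and 5.87, 5.91, 6.37, 4.46 and 4.39 on adult arrays 1 to 5. Embryonic replicates 1, 3 and 5 were the high samples, adult replicates 4 and 5 the low ones, and the stages overlapped. The change was -1.37 ± 0.63 (SE; 95% interval -2.76 to 0.02; limma adjusted p = 0.52). Within the 4 wide arrays the difference was -2.82 ± 0.19 (adjusted p = 0.092), and within the 6 narrow arrays it was -0.40 ± 0.81 (adjusted p = 0.91).

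Scn11a encodes a tetrodotoxin-resistant channel with a persistent current near the resting potential. It stood at 6.32, 4.09, 4.43, 4.68 and 4.39 on the embryonic arrays and at 4.53, 3.48, 4.45, 3.46 and 3.34 on the adult arrays. Embryonic replicate 1 was well above the rest, the other 9 values lay between 3.34 and 4.68, and the stages overlapped. Adult replicate 2, at -0.38 relative to the background level, was the array on which Scn11a was not above it. On the other arrays except embryonic replicate 1 it exceeded that level by only 0.26 to 0.74, so most values were near background. The change was -0.93 ± 0.45 (SE; limma adjusted p = 0.55), or -1.96 ± 0.75 within the wide and -0.25 ± 0.39 within the narrow arrays, and -0.55 over all arrays but embryonic replicate 1.

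Scn9a encodes the channel that amplifies small depolarisations in pain-sensing endings. It was at 5.81, 3.25, 3.40, 2.37 and 7.07 on embryonic arrays and at 2.53, 2.61, 2.68, 1.67 and 2.25 on adult arrays. Embryonic replicates 1 and 5 stood above background, the other 3 embryonic arrays and all 5 adult arrays did not, and the stages overlapped. The means were 4.38 ± 1.97 and 2.35 ± 0.41 (SD, n = 5; limma adjusted p = 0.40), and no fold is given because most values of both stages lay under background. The change of -2.03 ± 0.80 (SE) was -1.36 without embryonic replicate 5, -4.48 ± 0.55 within the wide arrays (adjusted p = 0.11) and -0.40 ± 0.36 within the narrow ones (adjusted p = 0.79).

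Scn3a, the embryonic-type alpha subunit, varied most among embryonic samples. Its values were 4.67, 2.34, 7.10, 2.77 and 6.32 there and 2.24, 3.40, 2.55, 2.08 and 2.19 on adult arrays. Embryonic replicates 1, 3 and 5 were above background and 0 of 5 adult arrays were, though embryonic replicates 2 and 4 lay within the adult range. The means were 4.64 ± 2.10 and 2.49 ± 0.54 (SD, n = 5), and the change was -2.15 ± 0.86 (SE; limma adjusted p = 0.41), or -1.53 without embryonic replicate 3. Unlike Scn9a, it was high on a narrow embryonic array, replicate 3, and its difference was -3.36 ± 0.64 (SE) within wide and -1.34 ± 1.24 within narrow arrays.

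Scn2a and Scn8a had no measurable level by this rule. Scn2a ran from 1.77 to 2.39 on embryonic and from 1.61 to 3.33 on adult arrays, the highest being adult replicate 3. Scn8a ran from 1.94 to 2.42 and from 1.90 to 2.48. Both changes, 0.06 ± 0.35 and 0.01 ± 0.23 (SE; limma adjusted p = 0.99 and 1), were read at or under the background, where an array compresses differences, so they do not show equal levels. Each gene had a single probe set here.

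Scn3b encodes a beta subunit that joins the alpha subunit without a covalent bond. Its brighter probe set, 1383435_at, was at 8.52, 5.29, 8.36, 7.71 and 9.83 on embryonic arrays and at 4.43, 3.12, 5.17, 3.03 and 4.96 on adult arrays. The lowest embryonic value, replicate 2, was 5.29 and the highest adult value, replicate 3, was 5.17, so the stages did not overlap, which held for 2.58% of all probe sets, or 1.42% counting those with lower adult values. The means were 7.94 ± 1.67 and 4.14 ± 1.01 (SD, n = 5), and the change of -3.80 had a 95% interval of -5.51 to -2.09. It passed the threshold when embryonic replicate 2, its lowest embryonic value, was left out (-4.46, limma adjusted p = 0.011). It also passed when only probe sets above background on at least 5 arrays were kept (0.019), and with the replicate block (0.027). Every other omission of an array missed the threshold (limma adjusted p = 0.065 to 0.13), as did the other fits over all 10 arrays (0.051 to 0.091).

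The dimmer Scn3b probe set, 1370850_at, gave 5.28, 4.68, 3.75, 3.21 and 7.11 on embryonic arrays and 3.62, 2.85, 3.28, 2.39 and 2.93 on adult arrays. Embryonic replicate 5 was the highest on both probe sets, and 3 embryonic and 0 adult arrays were above background. The change was -1.79 ± 0.64 (SE; limma adjusted p = 0.33). That change was -3.54 ± 0.74 within wide and -0.63 ± 0.46 within narrow arrays. Over the 10 arrays, which include the stage difference, the probe sets of Scn3b had a Pearson r of 0.76, given as a description. Within wide and narrow arrays the brighter probe set changed by -5.19 ± 0.89 and -2.88 ± 0.90 (SE; adjusted p = 0.15 and 0.32). In every class of arrays examined its adult mean was lower.

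Scn2b encodes a beta subunit that is linked to the alpha subunit by a disulphide bond. Its probe set 1396405_at was at 5.23, 2.88, 3.05, 5.09 and 4.24 on embryonic and at 2.92, 4.13, 4.95, 4.74 and 2.65 on adult arrays. High and low arrays occurred in both stages, with 3 of 5 above background in each. The change was -0.22 ± 0.61 (SE; 95% interval -1.58 to 1.14; limma adjusted p = 0.97). The other probe set, 1369311_at, stayed at 1.87 to 3.41, above background on 0 arrays, and did not follow the first (Pearson r of -0.06 over 10 arrays, as a description). With probe sets that disagree, the level of Scn2b is uncertain.

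**Figure D2:**
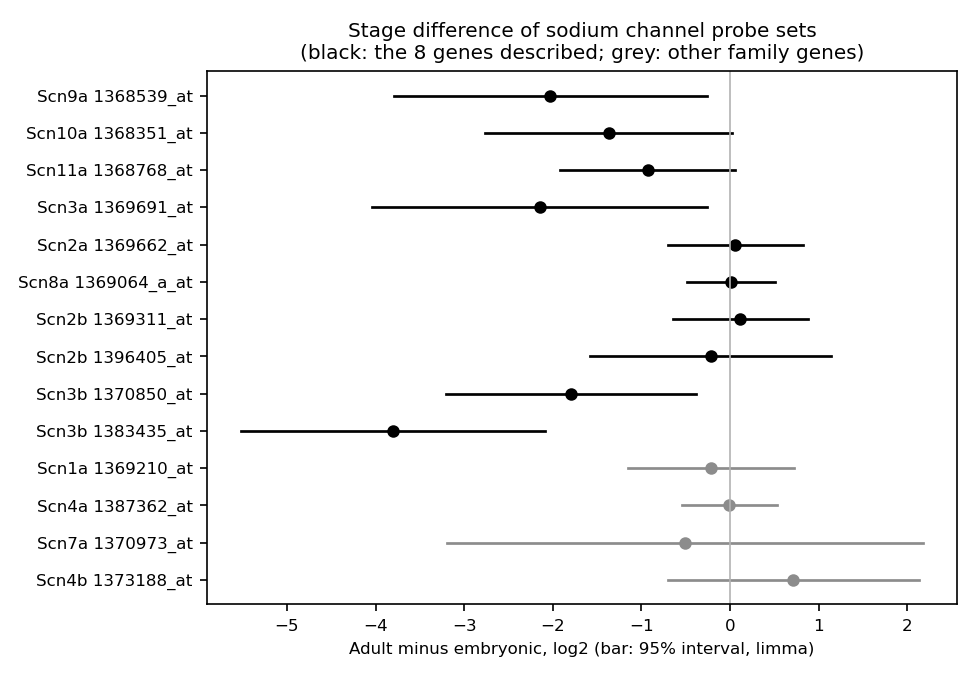
Adult minus embryonic log2 difference (horizontal axis) of each sodium channel probe set with its 95% interval from limma over 5 arrays per stage; black marks are the 10 probe sets described and grey marks 4 other family genes. The brighter Scn3b probe set lies at -3.80 with an interval from -5.51 to -2.09, and the intervals of Scn10a, Scn11a, Scn2a, Scn8a and both Scn2b probe sets include 0.

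Whether members differed in their change was tested on 5 pairs, as the difference of 2 genes within each array compared between stages. Scn2b changed less than Scn3b, by 3.58 log2 units (exact permutation p = 0.0079, the smallest that 5 against 5 arrays allow; 0.040 after adjustment over the 5 pairs). The pairs were chosen with earlier results of these data known. This difference is mostly the change of Scn3b, -3.80, as that of Scn2b was -0.22. The Scn2b probe set was above background on 6 of the 10 arrays, and values under background are compressed. The call was lost with the mean of each gene's probe sets (2.74, adjusted p = 0.079) and in some omissions of a single array. Relative to Scn3a, the change of Scn11a was 1.22 higher (exact permutation adjusted p = 0.42). The value for Scn8a relative to Scn3a (2.16, exact permutation adjusted p = 0.14) restates the change of Scn3a, since Scn8a was above background on 0 arrays. Scn10a differed from Scn3a by 0.78 (exact permutation adjusted p = 0.41) and Scn9a by 0.12 (exact permutation adjusted p = 0.97). With this spread between samples, a p that misses the threshold does not show that the genes changed alike.

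**Figure D3:**
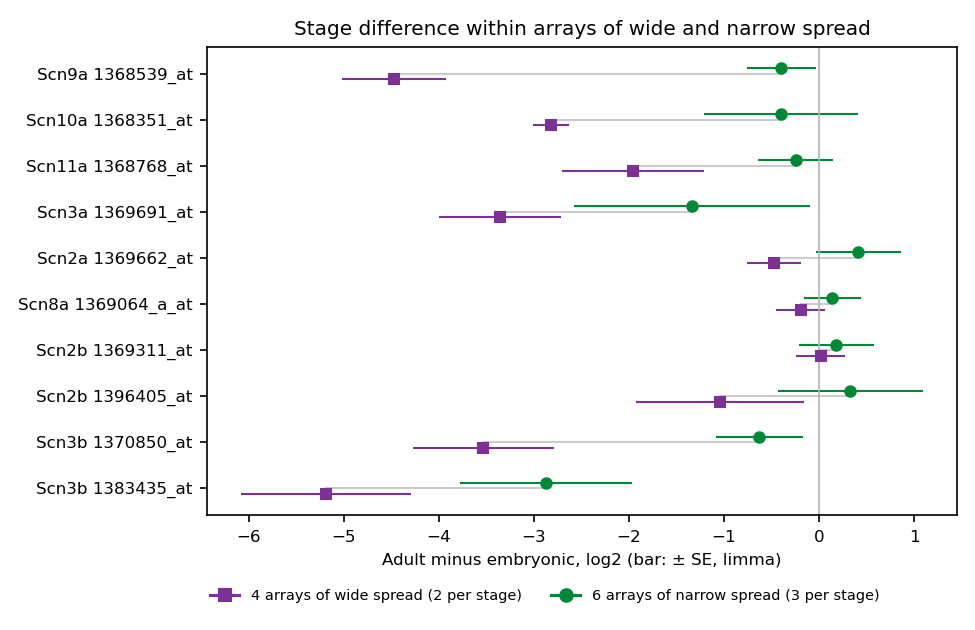
Adult minus embryonic log2 difference ± SE (horizontal axis) of each sodium channel probe set, fitted within the 4 wide arrays (purple squares) and within the 6 narrow arrays (green circles). The difference of Scn9a is -4.48 within wide and -0.40 within narrow arrays, and that of the brighter Scn3b probe set is -5.19 and -2.88. Scn9a lay under background on all 6 narrow arrays.

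The alpha subunits with signal thus had larger stage differences within the wide arrays than within the narrow ones, and the difference between the classes was not tested. The classes were set by the spread of all values, so larger differences within wide arrays are partly built in. Scn9a lay under background on every narrow array, where differences are compressed. Array spread as a block left all 10 adjusted p values above 0.05, with 0.051 for the brighter Scn3b probe set.

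Other family members were read the same way. Scn7a, which encodes a sodium-sensing relative that does not open on depolarisation, was above background on all 10 arrays. It ran from 4.68 to 9.28 on embryonic and from 4.52 to 10.45 on adult arrays (change -0.51 ± 1.22, SE; limma adjusted p = 0.97). Its high arrays were adult replicate 5 and embryonic replicates 5 and 1, all wide, and its lowest was the other wide array, adult replicate 4. Scn4b, a beta subunit known for resurgent current, was above background on 2 adult arrays, replicates 1 and 5, at 4.44 and 5.59, and on 0 embryonic arrays. Scn1a exceeded background on embryonic replicate 1 alone (3.35), and Scn4a, the skeletal muscle channel, on 0 of 10. None of these 4 genes passed the test by limma, and 0 had an unadjusted p under 0.05.

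Channel partners are proteins that anchor, carry or regulate sodium channels. Of 21 measured, 2 fell and 0 rose by limma, where 0.647% of all genes fell and 0.612% rose, and 6 had an unadjusted p under 0.05 with a lower adult mean, as did 7.01% of all genes. The list's median change was -0.26, against -0.0009 over all genes. Ank2, an ankyrin that links membrane proteins to the spectrin skeleton of the axon, was at 9.92, 9.70, 9.14, 8.27 and 9.77 on embryonic arrays and at 2.39, 5.25, 3.18, 5.47 and 5.33 on adult arrays. All embryonic values lay above all adult values, a change of -5.04 ± 0.64 (SE; limma adjusted p = 0.0053), and -4.45 within wide and -5.43 within narrow arrays. Other Ank2 probe sets changed by -2.38 (adjusted p = 0.054) and -0.53 (adjusted p = 0.63). Map1b, a microtubule-associated protein reported to bind a sodium channel, changed by -3.06 ± 0.59 (limma adjusted p = 0.044). That call was lost in 8 of 10 omissions of a single array, and other Map1b probe sets changed by -1.37 and -0.04 (adjusted p = 0.72 and 0.99).

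Among partners chosen for mention after their values were seen, Ank3, the ankyrin that gathers sodium channels at the initial segment and at nodes, exceeded background on all 5 embryonic arrays and on 4 adult ones. It was at 5.33 ± 0.93 and 3.82 ± 0.48 (SD, n = 5; limma adjusted p = 0.19). Other Ank3 probe sets changed by -0.50 and 0.05 (limma adjusted p = 0.61 and 0.99) and were above background on 0 arrays. Fgf13, an intracellular relative of growth factors that binds the channel's tail, was at 9.05 ± 2.55 and 4.76 ± 1.85 (limma adjusted p = 0.18). Its embryonic replicate 4, at 4.58, lay within the adult range. The annexin partner S100a10, which helps bring Scn10a protein to the surface, was at 10.42 ± 0.28 and 10.17 ± 0.70 (limma adjusted p = 0.92). Of the partners not called, Kif5b came closest to the threshold, with a change of -2.33 ± 0.48 (SE, limma adjusted p = 0.056).

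The sodium pump restores the gradient that the channels run down. Of 7 measured genes for its beta and regulatory subunits, 1 rose and 0 fell by limma, where 0.612% of all genes rose and 0.647% fell. At an unadjusted p under 0.05, 2 were higher and 1 was lower. Over all genes 7.01% were lower at that threshold. The share in either direction, 9.84%, is over all probe sets and not over genes. The median change was 0.85, against -0.0009 over all genes. Fxyd2, a small regulatory subunit, was at 5.12, 3.40, 4.36, 3.88 and 3.82 on embryonic arrays and at 6.63, 6.16, 8.02, 7.15 and 7.07 on adult arrays. The stages did not overlap, and the change was 2.89 ± 0.41 (SE; limma adjusted p = 0.0093), or 2.64 within wide and 3.06 within narrow arrays. The 3 catalytic subunits on the list were not analysed here.

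**Figure D4:**
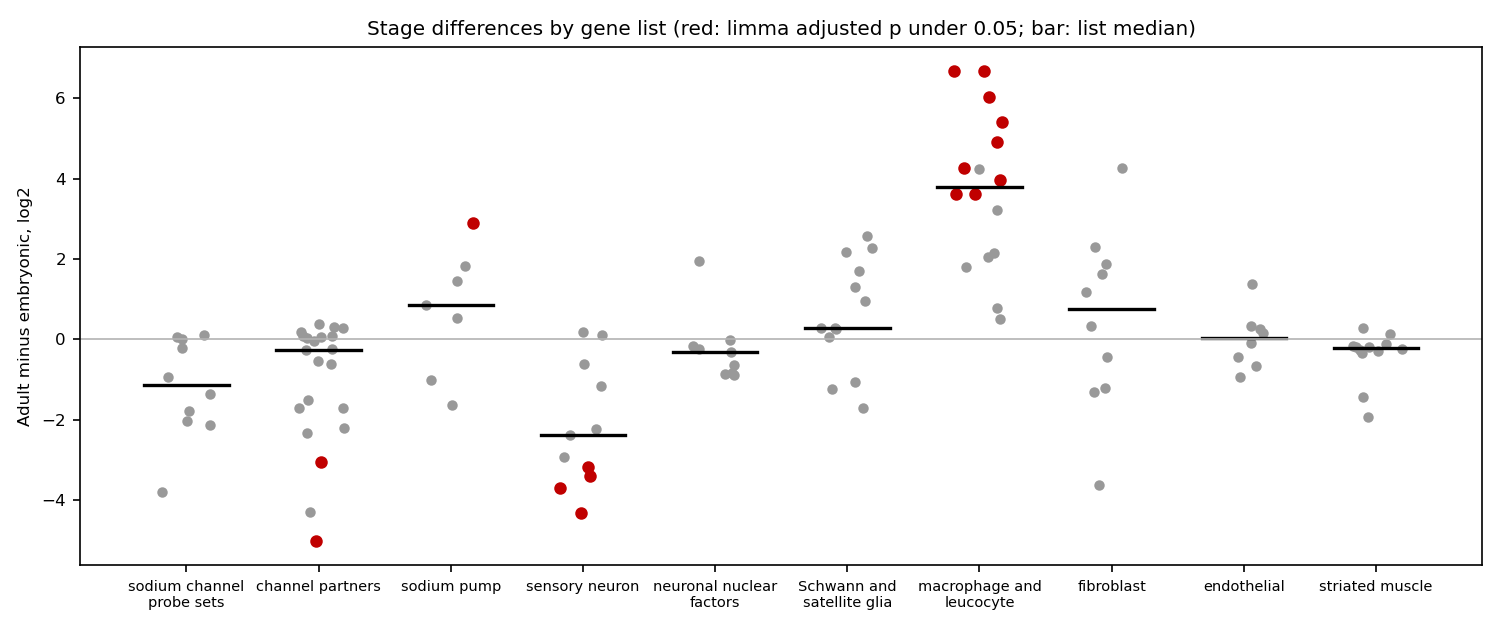
Adult minus embryonic log2 difference (vertical axis) of the 10 sodium channel probe sets and of the genes of 9 lists, with red for a limma adjusted p under 0.05 and a black bar for each median. The sodium channel median is -1.15 with 0 called, beside -2.38 for sensory neuron markers with 4 of 11 called lower and 3.79 for macrophage and leucocyte markers with 9 of 16 called higher. Over all genes 0.647% were called lower and 0.612% higher.

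Markers of neurons and of other cells moved with the stage too. Sensory neuron markers had 4 of 11 genes lower in adult samples and 0 higher by limma, where 0.647% of all genes were lower and 0.612% higher. Their median change was -2.38. Above background on all embryonic arrays were 9 of 11 and on all adult arrays 7. Of all probe sets 16.6% and 13.8% were, but these include unnamed probe sets and dimmer ones of the same gene, so the units are unlike. On a single array, 5018 to 9470 of the 14217 genes were above background. The level of these markers, taken as the mean of the list, ran from 7.06 to 9.68 over embryonic and from 5.66 to 7.99 over adult arrays. Embryonic replicates 1 and 5 were the highest. A list of nuclear factors, drawn up as a sign of neuronal cell bodies, had 0 of 9 genes called by limma and ran from 4.02 to 4.60 and from 3.58 to 4.55. At an unadjusted p under 0.05, 1 was higher in adult samples and 0 lower. Over all genes 7.01% were lower at that threshold, and over all probe sets 9.84% differed in either direction. The list holds Rest, Runx1 and Runx3, which are not particular to neurons, so it does not mark cell bodies alone. Isl1, Runx1 and Etv1 were above background on all 10 arrays and Tlx3, Neurod1 and Neurog1 on 0.

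Macrophage and leucocyte markers had 9 of 16 genes higher and 0 lower by limma, where 0.612% of all genes were higher and 0.647% lower. They ran from 3.35 to 5.87 over embryonic and from 6.80 to 8.60 over adult arrays without overlap. Schwann and satellite glial markers had 0 of 13 genes called by limma. At an unadjusted p under 0.05, 3 were higher in adult samples and 0 lower. Over all genes 7.01% were lower at that threshold, and over all probe sets 9.84% differed in either direction. The glial list ran from 4.34 to 5.10 and from 4.74 to 6.62, and was highest on adult replicate 5, where Scn7a was highest too. On embryonic replicate 5, where Scn7a was next highest at 9.28, the glial list was at its lowest, 4.34. Above background on all arrays of a stage were 5 of the 13 glial genes in embryonic and 4 in adult samples, Pmp22, Mbp and Glul in both, and Kcnj10 was above it on 0 arrays. Fibroblast markers had 0 of 10 genes called by limma (3 with an unadjusted p under 0.05) and ran from 4.59 to 5.98 and from 4.13 to 7.87. Endothelial and striated muscle markers had 0 of 8 and 0 of 12 genes called by limma. At an unadjusted p under 0.05, 1 endothelial gene was higher and 1 lower, and 0 muscle genes were higher and 2 lower. The endothelial list ran from 2.78 to 3.39 and from 2.79 to 3.32, with Pecam1 and Flt1 above background on 0 arrays. The muscle list ran from 3.29 to 3.74 and from 2.85 to 3.46, and 7 of its 12 genes were above background on 0 arrays. Myh1 was above it on all 10, at 12.20 in embryonic and 10.27 in adult samples on average, and Acta1 on 5 embryonic arrays and 1 adult array. The part of these cell types in the sodium channel values was not tested.

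The genes whose values followed each channel most closely were read as a description over the 10 arrays, among 7963 genes with a mean above the mean background level. For the brighter Scn3b probe set they were the RNA-binding protein Elavl4 (Pearson r of 0.93), the protein kinase A subunit Prkar1b (0.92) and the synaptic vesicle protein Syn2 (0.92). Their own changes were -3.79, -2.80 and -2.37 (limma adjusted p = 0.012, 0.037 and 0.069). For Scn10a they were the kinesin Kifc2 (0.95), the kinase Pak3 (0.95) and the calpain Capn15 (0.91). For Scn11a they were Pnma8b (0.94), Hoxa7 (0.90) and Zfp512b (0.89). The median r over the same genes was 0.07, -0.11 and -0.01 for the 3 channels. Arrays share their spread and stage, which enter every such r. The r values for Scn11a also rest in part on embryonic replicate 1, where Scn11a stood well above its other values. They were not computed without that array.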

How the data were processed

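Axonal RNA was hybridised to Affymetrix rat whole-genome arrays. The deposited log2 values were made by the authors with RMA, per the submitters' processing notes (version and options: not given in the sources used here). Their range was read as log base 2. The number of arrays limits the precision. RMA compresses differences of weak probe sets.

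The platform annotation names 20826 probe sets with a single symbol, 436 with several and 9780 with none, and 57 controls were left out. The stage difference (adult minus embryonic) was tested with limma 3.58.1 under R 4.3.3 (lmFit and eBayes, two-sided) on 31042 probe sets, with Benjamini-Hochberg adjustment over all of them. In gene lists a gene was its probe set with the highest mean. For pairs of members the exact permutation test was two-sided.

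Named genes were all members and measured relatives, called partners and pump genes, and the 3 genes most correlated with each member above background throughout a stage. The uncalled partners Ank3, Fgf13, S100a10 and Kif5b, and some marker genes, were also named after their values were seen. Members, lists, pairs and alternatives were chosen with earlier results of these data known. Alternatives were scaling, filtering, variance model, array weights, array spread, replicate block, background level, probe set summary and omission of each array. Same-numbered samples did not pair (r of -0.12 to 0.28 between their deviations from the stage means). The fit was tested on simulated data. Figures used Python 3.11.15 and matplotlib 3.10.9. RefSeq promoters matched 7 of 8 members.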

Additional observations from a re-analysis of the deposited data

Results flagged for a closer look

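Dixon's test for a single distant sample was run on 34 groups of 5 arrays, the sodium channel family probe sets and the 3 named partner and pump genes by stage. It marked 2, where chance marks about 1 in 20. Scn11a on embryonic replicate 1 was at 6.32, with the other embryonic arrays at 4.09 to 4.68. Without that array the Scn11a change was -0.55 in place of -0.93. Scn7a on adult replicate 5 was at 10.45, with the other adult arrays at 4.52 to 5.65. The fibroblast and the Schwann and satellite glial list means were highest on that array, at 7.87 and 6.62. On adult replicate 4, however, the fibroblast mean was 7.79 and Scn7a was at its lowest, 4.52. On embryonic replicate 5, with Scn7a at 9.28, both list means were at their lowest among embryonic arrays, 4.59 and 4.34. A link between these lists and Scn7a was not tested.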

How the results depend on the processing

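The directions of Scn9a, Scn10a, Scn11a, Scn3a and both Scn3b probe sets were the same in every alternative fitted. The count of sodium channel probe sets called lower was 0, and 1, the brighter Scn3b probe set, with the filter on weak values and with the replicate block, and 0 to 1 over omissions of an array. Values near 0 turned sign, each uncalled: Scn8a with cyclic loess (-0.024), median scaling (-0.011) and within wide arrays (-0.19), Scn2a with array weights (-0.0084) and within wide arrays (-0.47), and Scn2b 1396405_at within narrow arrays (0.33). Over omissions these ran from -0.074 to 0.078 for Scn8a, from -0.25 to 0.19 for Scn2a, and from -0.52 to 0.088 and -0.019 to 0.36 for Scn2b. Partner genes called lower were 2, and 3 with array weights or the filter on weak values, 1 with median scaling, the replicate block, or trend and robust variances, 0 within wide arrays, and 1 to 2 over omissions. The pump gene called higher went to 0 within narrow and within wide arrays. The unequal change of Scn2b and Scn3b was 4.14 within wide arrays (exact permutation adjusted p = 0.56), 3.21 within narrow ones (0.50), 3.58 with the replicate block (0.31) or array spread as a block (0.083), 2.74 with averaged probe sets (0.079) and 3.09 to 4.09 over omissions (0.040 to 0.079). Within a class of arrays or under either block, the permutation test of this pair alone is too small to pass after adjustment, so those p values say nothing of stability. With an array left out the test could pass. The call was lost without embryonic replicate 1, 3 or 5 or adult replicate 4, and kept in the other omissions. Scn9a relative to Scn3a was -1.12 within wide arrays and -0.74 to 0.47 over omissions, and Scn8a relative to Scn3a 1.49 to 2.72, which restates Scn3a, since Scn8a lay under background. Probe sets above background on all 5 adult arrays were 1, and 0 with the 99th percentile or the maximum as the level, 5 with the median, 2 with 4 of 5 arrays required and 1 to 2 over omissions, 2 without adult replicate 2. Embryonic ones were 3, and 2 with the 99th percentile or the maximum and 5 with the median. Signal near background limits Scn2a, Scn8a, Scn9a, Scn3a, Scn2b and Scn11a most.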
